A study of Homo sapiens with 6 samples.

Results

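The mitotic kinases examined here are PLK1, PLK4, AURKA, AURKB, BUB1, BUB1B and TTK, chosen by gene name from a pooled CRISPR knockout screen. All 7 were in the count table, out of 7093 genes, with 10 guides each, and all 70 of their guides passed the filter on library counts. The cells were HAP1, a human line of leukaemic origin that carries nearly 1 copy of each chromosome, and guides were counted in 6 samples, 2 of the guide library, 2 of parental HAP1 cells and 2 of SETD2-mutant HAP1 cells. SETD2 is the enzyme that trimethylates H3K36. Parental and SETD2-mutant cells were infected with the guide virus at a multiplicity of infection of 0.7 and kept under puromycin for 12 doublings. Each line was infected and afterwards divided into its replicates, so the p-values reflect only how far these samples differ, which may be technical. The labels leave out how many SETD2-mutant clones were used and where the library samples came from.

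Polo-like kinases, Aurora kinases and the checkpoint kinases drive successive steps of cell division. PLK1 acts in mitotic entry, centrosome maturation, chromosome attachment and cytokinesis, and PLK4 starts the duplication of centrioles. AURKA works at centrosomes and spindle poles, while AURKB is the catalytic subunit of the chromosomal passenger complex, which corrects faulty attachments of chromosomes to the spindle. TTK (MPS1), BUB1 and BUB1B (BUBR1) belong to the spindle assembly checkpoint, which delays anaphase until all kinetochores are attached. TTK starts the signal, BUB1 is a kinase and a platform at the kinetochore, and BUB1B is part of the complex that inhibits the anaphase-promoting complex. In a dropout screen, cells that carry a guide to a gene needed for division become rare, so the guide is lost from the pool.

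Sample totals ranged from 25082426 to 38428425 counts, with a median of 284 to 466 counts per guide, and 5 to 358 of the 71626 guides had no count in a sample. Levels are given as CPM, which scales each count to the size of its library (with TMM factors), and a change is a log2 difference, with negative values for loss. In a single sample, log2 CPM (prior count 2) minus the library mean was averaged over the guides of a gene. Between groups, the edgeR log2 fold changes of its guides were averaged, and their standard error (SE) is given. Guides to 1 gene share a target and are not replicates. A gene was called depleted or enriched when robust rank aggregation (RRA) of the edgeR guide statistics gave an adjusted p below 0.05 over the 7090 genes tested. Guide counts read growth and not expression, so the cell type and the level of each kinase were not checked. Guides to SETD2 itself averaged −1.12 in parental cells, against −0.61 in the mutant line.

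The comparison of parental cells with the library asks which kinases unmodified HAP1 cells needed over the screen. All 7 kinases were depleted in parental cells, where 9.90% of all genes tested were depleted (702 of 7090) and 1.07% enriched. In SETD2-mutant cells 6 of 7 were depleted and BUB1 did not pass the test, with 9.06% of all genes depleted (642 of 7090) and 1.10% enriched. The median change of the 7 kinases was −2.02 in the parental line (−0.015 over all genes) and −2.07 in the mutant line (−0.051 over all genes). Both lines were compared with the same 2 library samples. The kinases spanned a wide range of loss in parental cells, from PLK1, which stood 27th of 7090 genes from the most depleted, to BUB1, which stood 819th.

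**Figure D1:**
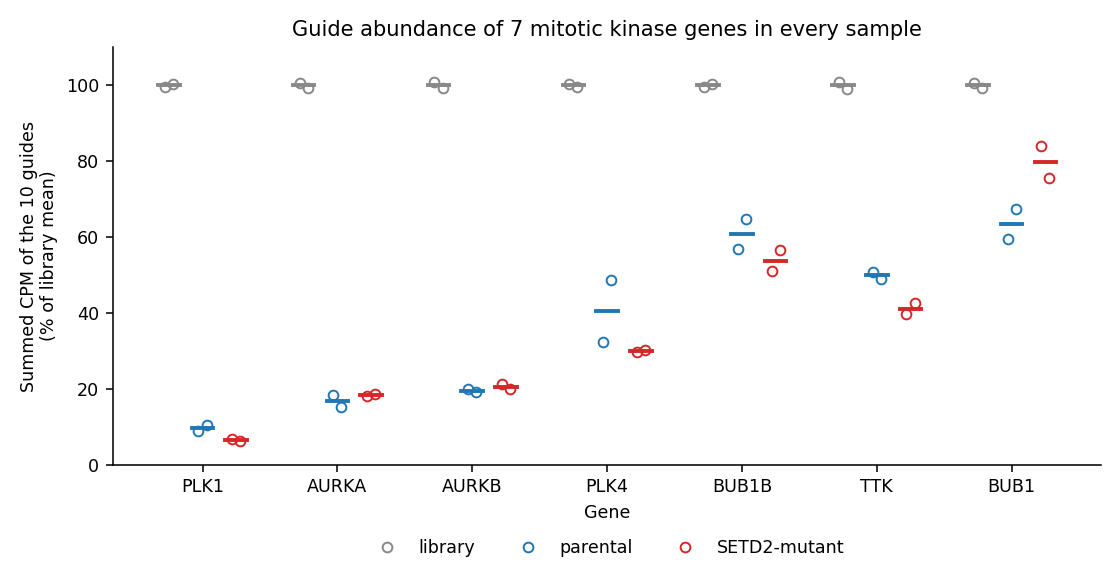
Summed CPM of the 10 guides of each gene as a percentage of the mean of the library samples (vertical axis, linear), for library (grey), parental (blue) and SETD2-mutant (red) samples. Circles are samples and bars are the means of 2 samples. PLK1 kept 6.19% to 10.5% of its library level in the 4 cell samples, and BUB1 kept 59.5% to 83.9%.

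PLK1 (chromosome 16, 23678889 to 23690367 in the RefSeq annotation of GRCh38.p14) lost the most. Its 10 guides together held 175 and 177 CPM in the library samples, 15.8 and 18.4 CPM in the parental samples and 12.0 and 10.9 CPM in the SETD2-mutant samples. Both SETD2-mutant samples lay below both parental samples, as 38.9% of all genes did by the mean over guides. All 4 lay far below the library. The change of parental cells against library was −3.96 (SE 0.485, adjusted p = 1.47e-09 by edgeR and RRA), and the replicates stood at −4.02 and −3.81. For SETD2-mutant cells the change was −5.45 (SE 0.956, adjusted p = 8.19e-09 by edgeR and RRA), with replicate values of −4.74 and −4.99. Guide HZD_KIN_04654 began at 539 and 526 counts in the library. Parental cells kept 49 and 26 counts of it, and both SETD2-mutant samples had 0. Taken at 3 counts per library, it was at least 141-fold lower than in the library, and the SETD2-mutant change of PLK1 then became −4.97. Guide HZD_KIN_04651, with 1 count in each SETD2-mutant sample, was left as fitted. All 10 PLK1 guides were lost at least 4-fold in each of the 4 cell samples, and the best retained guide stood at 23.2% of its library level in the parental line and 20.3% in the mutant line.

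The Aurora kinases followed. AURKA (chromosome 20, 56369390 to 56392215) held 400 and 394 CPM in the library, 72.6 and 60.5 CPM in parental cells and 71.7 and 73.6 CPM in SETD2-mutant cells. The samples of the lines overlapped, at 15.2% to 18.5% of the library level. The change was −3.00 (SE 0.456, adjusted p = 1.47e-09 with edgeR and RRA) in parental and −2.96 (SE 0.449, adjusted p = 3.34e-08) in SETD2-mutant cells, with all 10 guides down in each line. AURKB (chromosome 17, 8204731 to 8210575) held 317 and 311 CPM in the library, 62.3 and 60.2 CPM in parental cells and 66.5 and 62.7 CPM in SETD2-mutant cells. Its change was −2.76 (SE 0.310, adjusted p = 4.01e-09 with edgeR and RRA) in parental and −2.96 (SE 0.445, adjusted p = 2.73e-08) in SETD2-mutant cells. All 10 AURKB guides were down in each line, and 8 of 10 in parental and 7 of 10 in SETD2-mutant cells were lost at least 4-fold in both replicates, against 6 and 5 of 10 for AURKA. Guide HZD_EPI_00551 was the best retained AURKB guide in both lines, at 47.8% and 60.3% of its library level.

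PLK4 (chromosome 4, 127880893 to 127899224) was depleted less than PLK1 and its parental replicates lay further apart. Its guides together held 123 and 122 CPM in the library, 39.8 and 59.7 CPM in parental cells and 36.5 and 36.9 CPM in SETD2-mutant cells. The higher parental value came with guide HZD_KIN_04677, which had 200 counts in parental replicate 1 and 746 in replicate 2, a gap of 2.07 on the log2 scale, where the median gap between parental replicates over all guides was 0.242. The change of PLK4 was −2.02 (SE 0.494, adjusted p = 0.000806 by edgeR and RRA, 9 of 10 guides down) in parental cells, and the replicates stood at −2.20 and −1.87. For SETD2-mutant cells the change was −2.07 (SE 0.353, adjusted p = 5.65e-05 by edgeR and RRA, 10 of 10 guides down), and the replicates stood at −2.24 and −1.99. That call was lost with dummyguide scaling, which sets the scale on the guides named dummyguide (adjusted p = 0.113 by edgeR and RRA), though the change was larger, at −2.99. It was also lost at a rank share limit of 0.1, where RRA scores only the top 0.1 of the guide ranking in place of 0.25 (adjusted p = 0.253).

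The checkpoint kinases lost less than PLK1 and the Aurora kinases. BUB1B (chromosome 15, 40161069 to 40221123) held 160 and 161 CPM in the library, 91.3 and 104 CPM in parental cells and 82.0 and 90.7 CPM in SETD2-mutant cells. Its change was −1.58 in parental cells (SE 0.468, adjusted p = 0.00717 from edgeR and RRA) and −1.72 (SE 0.489, adjusted p = 0.0339) in SETD2-mutant cells, with 8 of 10 guides down in each. The guides of BUB1B disagreed with each other. Guides HZD_KIN_00553 and HZD_KIN_00557 stood at 155% and 151% of their library level in parental cells and stood at 153% and 140% in SETD2-mutant cells, while HZD_KIN_00556 stood at 9.44% and 5.07%. The counts of HZD_KIN_00556 were 72 and 47 in parental and 40 and 6 in SETD2-mutant cells. Guide HZD_KIN_00554 stood at 6.60% in the parental line and 31.4% in the mutant line, from low counts of 7 and 8 against 26 and 33. The BUB1B call in SETD2-mutant cells was lost without parental replicate 1 (−1.72) and without parental replicate 2 (−1.72). It was also lost with only the 2 groups fitted (adjusted p = 0.0825 by edgeR and RRA) and with dummyguide scaling (0.139), where the parental call was lost too (0.0685). Under dummyguide scaling the changes were larger, at −2.64 in SETD2-mutant and −2.36 in parental cells.

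TTK (chromosome 6, 80004649 to 80042527) held 314 and 308 CPM in the library, 158 and 153 CPM in parental cells and 124 and 132 CPM in SETD2-mutant cells. Both SETD2-mutant samples lay below both parental samples, as 38.9% of all genes did by the mean over guides. The change was −1.23 (SE 0.259, adjusted p = 6.88e-05 by edgeR and RRA, 10 of 10 guides down) in parental and −1.65 (SE 0.354, adjusted p = 8.02e-05, 9 of 10 guides down) in SETD2-mutant cells. Its guides stood at 14.6% to 93.7% of their library level in parental cells, with a median of 50.2%, and at 9.27% to 103% in SETD2-mutant cells, with a median of 32.3%.

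BUB1 (chromosome 2, 110637528 to 110678063) was the least depleted of the 7. It held 317 and 313 CPM in the library, 187 and 212 CPM in parental cells and 264 and 238 CPM in SETD2-mutant cells. The summed CPM was thus higher in both SETD2-mutant samples than in both parental samples. No share of all genes was taken for this by summed CPM, and by the mean over guides 26.9% of all genes lay above. The mean over guides, which weights each guide equally, overlapped between the lines, with replicate values of −0.89 and −0.72 in parental and −0.63 and −0.78 in SETD2-mutant cells. The change was −0.80 (SE 0.171, adjusted p = 0.00119 by edgeR and RRA, 10 of 10 guides down) in parental cells. In SETD2-mutant cells it was −0.70 (SE 0.315, adjusted p = 0.207, 7 of 10 guides down). The parental call was lost without parental replicate 1 (−0.72, adjusted p = 0.132) and at a rank share limit of 0.1 (adjusted p = 0.334), while limma on gene means, summed counts per gene and dummyguide scaling called BUB1 in SETD2-mutant cells too (adjusted p = 0.000436, 0.00253 and 0.0387). For SETD2-mutant against library, limma called 2699 and summed counts 1829 of all 7090 genes depleted, against 642 by edgeR and RRA. Dummyguide scaling moved the median of all genes there by −0.92. The 8 genes within 5 Mb of BUB1 that were called in no comparison had a median change of −0.39 in the parental line and −0.34 in the mutant line, lower than beside any other of the 7 kinases, and the part of this in the change of BUB1 was not tested.

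**Figure D2:**
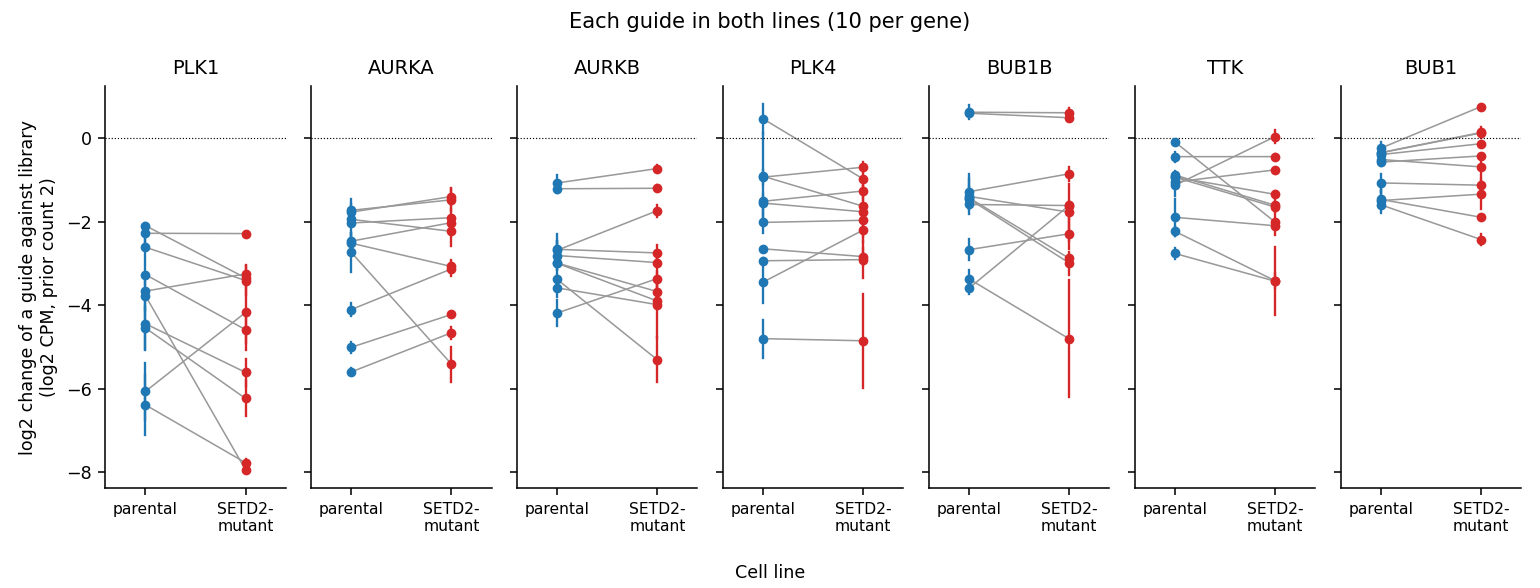
log2 change of each guide against the library mean (vertical axis, log2 CPM with prior count 2) in parental (blue) and SETD2-mutant (red) cells, in 1 panel per gene. Points are means of 2 samples, vertical strokes join the replicates and grey lines join the same guide across the lines. All 10 PLK1 guides lie at least 4-fold below the library in both lines, and 2 BUB1B guides lie above the library in both.

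In parental cells the order of loss was PLK1, AURKA, AURKB, PLK4, BUB1B, TTK and BUB1. The replicates of each gene did not overlap those of the next gene in that order, but the difference was within the combined SE over guides for AURKA and AURKB, for PLK4 and BUB1B, and for BUB1B and TTK. In SETD2-mutant cells the order was the same except that AURKB and AURKA changed places, with overlapping replicates. Neighbours in the SETD2-mutant order again differed by less than the combined SE for AURKB and AURKA, for PLK4 and BUB1B, and for BUB1B and TTK. In all, 33 of 70 guides were lost at least 4-fold in both parental samples and 32 of 70 in both SETD2-mutant samples, and 28 in all 4. Over the 71466 guides of all genes tested the shares were 5.35% and 6.36%, and 4.14% in all 4 samples.

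The guide names carry the letters KIN for PLK1, PLK4 and BUB1B and EPI for AURKA, AURKB, BUB1 and TTK, and the meaning of these letters is not stated. The 8160 guides with EPI had a median change of −0.19 to −0.20 in the 4 cell samples, and the 5828 guides with KIN a median of 0.038 to 0.050. The difference between the lines had a median of 0.0027 for EPI and −0.0034 for KIN guides.

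SETD2-mutant against parental asks whether SETD2-mutant cells depend more, or less, on these kinases. By edgeR and RRA 0 of the 7 kinases were depleted and 0 enriched, where 1.28% of all genes were depleted (91 of 7090) and 1.03% enriched (73 of 7090). With DESeq2 per guide in place of edgeR the count was also 0 in each direction. Unadjusted RRA p-values fell under 0.05 in the direction of depletion for PLK1 and TTK (0.00647 and 0.00508) and of enrichment for AURKA (0.0167), against 7.56% and 6.84% of all genes. The median of the 7 kinases was −0.14 and that of all genes was −0.038. Tests that treat a gene as 1 value called more genes of every kind. Limma on gene means called PLK1, BUB1B and TTK depleted and 1564 of all 7090 genes, and summed counts per gene called PLK1 and TTK depleted and BUB1 enriched, with 1540 and 1365 of all genes called in these directions. An exact permutation test of 2 samples against 2 cannot give a two-sided p below 0.333, so no such test was used.

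PLK1 changed by −1.49 between the lines (SE 0.858, 8 of 10 guides down, adjusted p = 0.247 by edgeR and RRA). With the guide that had 0 counts at its bound, which was at least 9.72-fold lower than in parental cells, the mean was −1.01 (SE 0.502), and without that guide it was −0.75 (adjusted p = 0.436). Guide HZD_KIN_04651, with 13 and 3 counts in parental and 1 and 1 in SETD2-mutant cells, was left as fitted in these means. The change of PLK1 was −0.95 by limma on gene means (adjusted p = 0.00140) and −0.58 by summed counts (adjusted p = 0.00361). Guide HZD_KIN_04648 went the other way, with 3 and 10 counts in the parental line against 37 and 13 in the mutant line. TTK changed by −0.42 (SE 0.260, 8 of 10 guides down, adjusted p = 0.216 by edgeR and RRA). Its guide HZD_EPI_07473 had 1537 and 1261 counts in the parental line against 209 and 429 in the mutant line, and guide HZD_EPI_07466 had 564 and 714 against 902 and 1509. SETD2-mutant changes were also rescaled so that 53 ribosomal protein genes had the same median loss in both lines. The changes of PLK1 and TTK then shrank to −0.75 and −0.20. This rescaled PLK1 value includes the 0-count guide as fitted, and it was not computed with that guide at its bound. Ribosomal protein genes had a median of −3.53 in the parental line and −4.08 in the mutant line before the rescaling.

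For the other kinases the change between the lines was smaller than its SE over guides. It was −0.20 for AURKB (SE 0.270), −0.14 for BUB1B (SE 0.346), −0.049 for PLK4 (SE 0.244), 0.038 for AURKA (SE 0.347) and 0.10 for BUB1 (SE 0.162). AURKA had 7 of 10 guides up, with guide HZD_EPI_00545 far below the rest at −2.73. At equal ribosomal protein loss it was called enriched by 0.44 (adjusted p = 8.28e-06 by edgeR and RRA). That rescaling multiplies SETD2-mutant changes by 0.865, so it moves every gene lost in those cells towards enrichment. Without the rescaling AURKA did not pass (0.038, adjusted p = 0.456 by edgeR and RRA). Both SETD2-mutant samples lay below both parental samples for PLK1, AURKB, BUB1B and TTK and above for none, by the mean over guides. By summed CPM, both SETD2-mutant samples lay above both parental samples for AURKB and BUB1. They lay below for PLK1, PLK4, BUB1B and TTK. Over all genes 38.9% lay below and 26.9% above by the mean over guides, and no such share was taken by summed CPM.

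**Figure D3:**
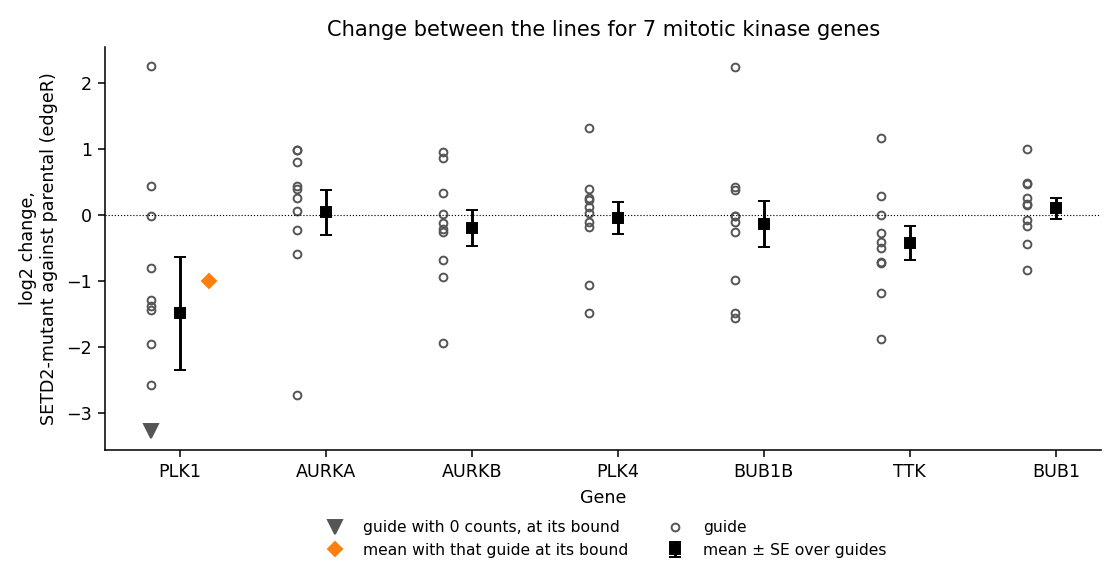
log2 change of SETD2-mutant against parental cells for the 7 kinase genes (vertical axis, edgeR). Circles are guides, the triangle is the PLK1 guide with 0 counts drawn at its bound, squares with bars are means ± SE over 10 guides, and the diamond is the PLK1 mean with that guide at its bound (−1.01). Guides of each gene lie on both sides of 0.

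Single guides differed between the lines more often than genes did. Of the 70 guides, 15 were lower and 10 higher in SETD2-mutant cells at an adjusted p below 0.05 by edgeR over 71570 guides, or 21.4% and 14.3%. Over all guides 12.8% were lower and 11.5% higher, and over the 7922 guides of the other genes depleted in either line 20.3% were lower and 16.6% higher. The kinases thus lay near other depleted genes. The SD over guides of the change between the lines was 2.71 for PLK1, 1.10 for AURKA and for BUB1B, 0.855 for AURKB, 0.824 for TTK, 0.772 for PLK4 and 0.513 for BUB1. The value for PLK1 depends on how edgeR fits its 0-count guide, and with that guide at the bound it was 1.59. The median SD was 0.560 over all genes and 0.963 over the 784 genes depleted in either line. In the library the median gap between replicates was 0.0753 on the log2 scale over all guides, and in the cell lines it was 0.242 and 0.275. It was larger for PLK1 guides, 0.726 in the parental line and 0.541 in the mutant line, where counts were low.

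Among genes tested, those with changes closest to each kinase in the 4 cell samples were named by Euclidean distance over these 4 values. They were PHF5A and TPI1 for PLK1 (distances 0.134 and 0.426), EXOSC8 and RPA1 for AURKA (0.155 and 0.182), HINFP and DHX8 for AURKB (0.134 and 0.187), and DAD1 and TMEM199 for PLK4 (0.171 and 0.211). For BUB1B they were HIRA and MTOR (0.151 and 0.168), for TTK they were EIF4E and HIST1H2AI (0.159 and 0.171), and for BUB1 they were DEXI and TMEM202 (0.0759 and 0.125). Of the kinases themselves, AURKA and AURKB were each other's nearest (0.431), as were BUB1B and TTK (0.491), while PLK1 lay 3.02 from its nearest, AURKA. A short distance here means only a like loss in 4 samples.

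The other Polo-like and Aurora kinases measured did not pass the test. PLK2 and PLK3, Polo-like kinases of stress responses, and AURKC, the Aurora kinase of germ cells, were called in 0 of the 3 comparisons. Their changes were 0.23 (SE 0.156), 0.061 (SE 0.0882) and 0.38 (SE 0.145) in parental cells and 0.11 (SE 0.223), 0.069 (SE 0.201) and 0.44 (SE 0.175) in SETD2-mutant cells. Of 19 other kinases listed as acting in mitosis, 7 were depleted and 1 enriched in each line. CDK1, the kinase that drives entry into mitosis, changed by −3.43 (SE 0.404) in parental cells, and its replicate values were −3.44 and −3.39 in parental and −3.57 and −3.31 in SETD2-mutant cells, where 1 of its guides had 0 counts. WEE1, which holds CDK1 inactive, changed by −3.07 (SE 0.457) and −3.55 (SE 0.506). MASTL, which protects the phosphorylation of CDK1 substrates, changed by −2.36 (SE 0.423) and −1.99 (SE 0.402). TAOK1 was the enriched kinase, at 0.84 in both lines (SE 0.202 and 0.303, adjusted p = 0.000428 and 0.000396 by edgeR and RRA).

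Between the lines 1 of these 19 kinases was depleted, where 1.28% of all genes were (91 of 7090). TLK2, a Tousled-like kinase that acts on the histone chaperone ASF1, changed by −0.45 (SE 0.252, 8 of 10 guides down, adjusted p = 0.0101 by edgeR and RRA). Its replicate values were −1.36 and −1.40 in parental and −1.77 and −1.89 in SETD2-mutant cells, which did not overlap. Over all genes 38.9% had both SETD2-mutant samples below both parental samples in such values. The call was lost without SETD2-mutant replicate 2 (−0.40, adjusted p = 0.192), with only the 2 groups fitted (−0.44, adjusted p = 0.0581) and at equal ribosomal protein loss (−0.20, adjusted p = 0.605).

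The remaining mitosis genes are given by their function. The anaphase-promoting complex, which ends mitosis by degrading securin and cyclin B, was measured through ANAPC1, ANAPC4, CDC16 and CDC27, its activator FZR1 and its substrate PTTG1 (securin), and 5 of these 6 genes were depleted in parental and 3 of 6 in SETD2-mutant cells. ANAPC4 changed by −3.01 and −3.04 and CDC16 by −2.92 and −3.12 in parental and SETD2-mutant cells. CDC27 was called in each line too (adjusted p = 0.0241 and 0.0468 by edgeR and RRA), with 1 guide at 0 counts in both parental samples and replicate values of −2.35 and −2.81 against −2.75 and −2.21. ANAPC1 stood at −1.34 (adjusted p = 0.00592) and at −0.98, which did not pass (adjusted p = 0.112). All 4 kinetochore genes were depleted in both lines, with the CENPA chaperone HJURP at −1.82 and −2.15, CENPC at −1.54 and −1.70, the centromeric histone CENPA at −1.97 and −2.17, and NSL1 of the MIS12 complex at −1.48 in parental cells. The NSL1 replicate values were −1.28 and −1.65 in parental and −2.67 and −2.55 in SETD2-mutant cells, where 1 guide had 0 counts, and NSL1 did not pass between the lines (adjusted p = 0.538 by edgeR and RRA). ECT2, the exchange factor that starts cytokinesis, was depleted by −2.56 and −2.70, and KIF20B did not pass in either line. Of 8 phosphatase genes, those of CDC25, CDC14, PP1 and PP2A, 2 were depleted in each line, PPP2CA (−3.00 in parental cells, with 1 guide at 0 counts in SETD2-mutant cells) and PPP1CB (−2.19 and −2.71), each a catalytic subunit. TRIP13, which disassembles the checkpoint complex, was depleted in the parental line (−1.08, adjusted p = 0.000129 by edgeR and RRA) and did not pass in the mutant line (−0.75, adjusted p = 0.409), nor between the lines (0.33, adjusted p = 0.762).

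Over the 44 other mitosis genes, 21 were depleted and 1 enriched in parental cells, 17 and 1 in SETD2-mutant cells, and 1 depleted and 0 enriched between the lines. Their median changes were −0.61, −0.65 and −0.13. In these comparisons 9.90%, 9.06% and 1.28% of all genes were depleted and 1.07%, 1.10% and 1.03% enriched. The table held 0 of the AURKB partners in the chromosomal passenger complex and 0 of the listed activators of AURKA and PLK1. It held TP53BP1 alone of the genes listed around PLK4, at −0.75 (adjusted p = 0.0377) in parental and −0.92 (adjusted p = 0.114 by edgeR and RRA) in SETD2-mutant cells.

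**Figure D4:**
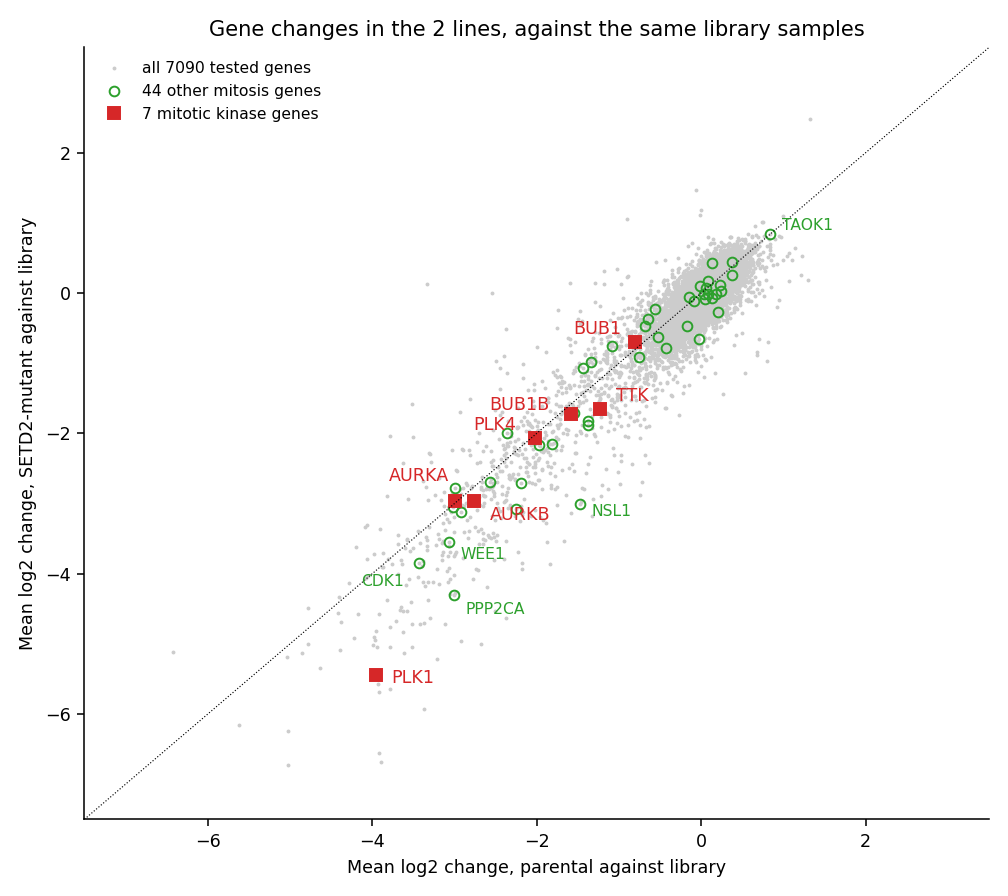
Mean log2 change against library in parental (horizontal axis) and SETD2-mutant cells (vertical axis) for the 7 kinase genes (red squares), 44 other mitosis genes (green circles) and all 7090 tested genes (grey), with the dotted line marking equal change. For PLK1, CDK1, NSL1 and PPP2CA the vertical position depends on how edgeR fits 0 counts, since 1 guide of each had 0 counts in both SETD2-mutant samples. The same holds for the horizontal position of CDC27, with 1 guide at 0 counts in both parental samples. The axes share the same library samples, so the spread along the line is no separate evidence. PLK1 lies lowest of the kinases at −3.96 and −5.45 and BUB1 nearest to 0 at −0.80 and −0.70.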

How the data were processed

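Per the labels' protocols, guide inserts were sequenced from PCR products (single-end, 75 bp). The authors deposited a table of guide counts, which are whole, unscaled numbers. The submitters' processing notes name MAGeCK and hg38 with no version or settings. All columns matched a sample by title.

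Guides averaging at least 30 counts in the library were kept (71570 of 71626, 100 of them labelled dummyguide). TMM scaling was used, and a model was fitted over all 6 samples by group in edgeR 4.0.16 (R 4.3.3; glmQLFit, robust, and glmQLFTest per guide). Guides were ranked by signed p and combined by RRA (rank share limit 0.25, exact null distribution, genes with 3 or more guides), one-sided, with Benjamini-Hochberg adjustment over 7090 genes in each direction. RRA ranks a gene's guides among all guides, so it tests a gene against the rest. The procedure was tested on simulated data. Interval and floor values cover counting error or spread over guides only, and PCR reads are not independent molecules.

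Alternatives covered scaling, filter, test (DESeq2 1.42.0, limma 3.58.1, summed counts), rank share limit, samples in the fit, replicate block and leaving out each sample. The members and lists were chosen with earlier results of these data known. All 7 kinases were named. Of each list up to 3 called genes per comparison with the lowest RRA p, PLK2, PLK3 and AURKC, and the 2 genes nearest each kinase were named too. Single guides were named after their values were seen.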

Additional observations from a re-analysis of the deposited data

Results flagged for a closer look

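For each kinase the guide with the lowest p between the lines was singled out after its values were seen, and all 7 such guides differed at an adjusted p below 0.05 by edgeR. HZD_KIN_04654 to PLK1 had 0 counts in SETD2-mutant cells (adjusted p = 0.00249 by edgeR for the change as fitted). Its bound of −3.28 on the log2 scale was not itself tested. HZD_EPI_00545 to AURKA stood at −2.73 (adjusted p = 0.0033), with 133 and 227 counts in parental and 13 and 33 in SETD2-mutant cells. HZD_EPI_00558 to AURKB stood at −1.94 (0.00474), with 125 and 127 against 33 and 20 counts. HZD_EPI_07473 to TTK stood at −1.88 (0.000797), HZD_KIN_04682 to PLK4 at −1.48 (0.00747) and HZD_KIN_00551 to BUB1B at −1.48 (0.00419). HZD_EPI_00882 to BUB1 was higher in SETD2-mutant cells by 0.99 (0.00158), at 169% of its library level against 85.1% in parental cells. By edgeR and RRA 0 of these 7 genes were called. Over all guides 12.8% were lower and 11.5% higher between the lines. Over the guides of the other genes depleted in either line, 20.3% were lower and 16.6% higher. These shares count single guides and not the lowest-p guide of each gene. The share of genes whose lowest-p guide passed was not taken, so 7 of 7 cannot be set against other genes. The choice of the lowest p makes each of the 7 guide values a description. TLK2 was the other result that differed between the lines, at −0.45 (adjusted p = 0.0101 by edgeR and RRA).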

How the results depend on the processing

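The calls of the 7 kinases against library were 7 of 7 in parental and 6 of 7 in SETD2-mutant cells, and over 17 alternatives per kinase (19 for PLK1 in SETD2-mutant cells) the direction held for all 7. PLK1, AURKA, AURKB and TTK kept their call in each of these that gave a p, which excepts PLK1 with its guide at the bound, and the exceptions for PLK4, BUB1B and BUB1 stand with their values above. Dummyguide scaling moved the median of all genes by −0.77 in parental cells, −0.92 in SETD2-mutant cells and −0.15 between the lines. Between the lines, depleted kinases numbered 3 by limma and 2 by summed counts, and enriched kinases 1 by summed counts and 1 at equal ribosomal protein loss, and 0 under the others run. At equal ribosomal protein loss, which moves every gene lost in SETD2-mutant cells upward, the change turned to 0.23 for PLK4, 0.20 for AURKB and 0.093 for BUB1B. It turned to 0.076 for AURKB by summed counts, and with dummyguide scaling to −0.11 for AURKA and −0.047 for BUB1. Leaving out 1 sample gave −0.27 to 0.19 for PLK4, above 0 without parental replicate 2 (0.19) or SETD2-mutant replicate 1 (0.0039), and −0.046 to 0.13 for AURKA, below 0 without parental replicate 2 (−0.0056) or SETD2-mutant replicate 2 (−0.046). It gave −0.38 (without SETD2-mutant replicate 1) to −0.090 (without SETD2-mutant replicate 2) for AURKB, and −0.13 without parental replicate 1. BUB1B moved to −0.30 without SETD2-mutant replicate 1. BUB1 moved to 0.017 without SETD2-mutant replicate 1, 0.020 without parental replicate 1, 0.20 without parental replicate 2 and 0.17 without SETD2-mutant replicate 2. The cause was not tested. With the replicate block, 7 kinases were depleted in parental and 6 in SETD2-mutant cells, and 0 between the lines. Deviations of same-numbered samples were not correlated (r from −0.0038 to 0.0033 over 7090 genes), so no pairing showed at the level of genes. Such a correlation cannot show whether same-numbered samples were handled together. The alternatives for the PLK1 guide with 0 counts were chosen after seeing the data. Low counts limit the PLK1 values, and each group has 2 samples.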
